A study of Mus musculus with 3 samples.

Results

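Cluster 0 comprised 270 of the 1879 nuclei in the deposited single-nucleus ATAC-seq (snATAC-seq) table, namely all those that carry the number 0 in its Seurat cluster column. The label given to these nuclei is inhibitory-like neurons. The cluster held 11 of 153 nuclei in the E12.5 library (E, embryonic day), 87 of 970 in the E13.5 library and 172 of 756 in the E15.5 library. The assay marks open chromatin by letting the transposase Tn5 insert adapters into accessible DNA inside nuclei, each of which then receives a droplet barcode. All 3 libraries, 1 per stage, came from wild-type embryos of the mouse strain C57BL/6JRj, littermates of those that the study profiled in situ. Nuclei were freed from 3 to 5 frozen sections of 70 µm that passed through many organs, stained with 7-AAD and sorted. The labels name no treatment or transgene. Sex was not determined according to the study's methods, and the sources used here do not say how many embryos went into each library. The methods describe an integration of these nuclei with the spatial profiles and an annotation of the resulting clusters from gene activities, but not the settings behind the cluster numbers. Because the clusters were drawn from the same accessible chromatin that is described below, no difference between clusters carries a test, and with 1 library per stage none between stages does either.

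Inhibitory neurons of the central nervous system release gamma-aminobutyric acid (GABA). The glutamate decarboxylases Gad1 and Gad2 make it, the vesicular transporter Slc32a1 loads it into synaptic vesicles, and plasma membrane transporters such as Slc6a11 take it back up. In the forebrain such neurons arise from ventral progenitors that use the Dlx homeodomain factors, whereas GABAergic neurons of the brainstem and spinal cord rely on other factors such as Pax2 and Ptf1a. Excitatory neurons carry vesicular glutamate transporters of the Slc17a family instead, and those of the cortex use Neurod, Tbr1 and Emx factors.

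The cluster 0 nuclei were well covered. They held a median of 112927, 63587 and 62736.5 unique fragments in stage order, with 7.25%, 9.40% and 10.9% of fragments at transcription start sites (TSSs, from 1000 bp upstream to 100 bp downstream). No barcode of cluster 0 was shared between libraries, and 0, 1 and 4 of its barcodes shared at least 10% of their fragments with another barcode of the same library. In cluster 6, the other neuron-like cluster and the closest reference, the median was 95707, 67887.5 and 41338 fragments over 5, 76 and 50 nuclei, and 10.3%, 10.7% and 11.8% of fragments lay at TSSs. Accessibility of a gene is given below as fragments over the gene body and the 2 kb upstream of it, as parts per 1000000 such fragments (CPM), summed over the nuclei of a cluster in a library. A gene was called higher or lower when it differed by at least 2-fold in the same direction at both E13.5 and E15.5, with 30 or more fragments in each of those libraries on the higher side. E12.5, with 11 nuclei of cluster 0 and 5 of cluster 6, is given beside these calls. The other clusters mean clusters 1, 3 and 5 to 11, cluster 6 included. Ranges in parentheses after a ratio are exact 95% intervals of a ratio of counts. They cover counting error only, not variation between embryos. For windows they rest on Tn5 insertions, and both ends of a fragment can fall in the same window. Such counts are not independent, so the intervals of windows are too narrow even for counting error.

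The marker genes given with the label were chosen with these data known and lay in the fragments that were clustered, so their levels describe cluster 0 and cannot support its label. All 5 (Gad2, Slc32a1, Tubb3, Stmn2 and Nefl) were called higher than in the other clusters, where 148 of 19034 genes tested (0.778%) were called higher and 212 (1.11%) lower. In stage order, Gad2 stood at 58.7, 144 and 98.7 CPM in cluster 0, beside 42.7, 33.8 and 33.1 CPM in the other clusters. Slc32a1 stood at 34, 59.9 and 45.5 CPM, beside 18.4, 15.2 and 12.9. Both genes were thus well above the other clusters in the later libraries, at ratios of 4.27 (3.84 to 4.73) and 2.99 (2.66 to 3.35) for Gad2 and of 3.94 (3.35 to 4.62) and 3.52 (2.94 to 4.21) for Slc32a1. The E12.5 ratio of Gad2 was 1.37 (0.939 to 1.96) and rested on 38 fragments. Background from nuclei that should lack these genes was not negligible: after thinning each nucleus to 10000 fragments, 58.6% and 40.9% of cluster 0 nuclei in the later libraries had a fragment in Gad2 (91.95% and 76.2% unthinned), against 16.2% of 160 nuclei and 2 of 10 nuclei in cluster 5, an erythroid-like cluster. Median depth before thinning was 66629.5 and 34051.5 fragments in those cluster 5 nuclei, and 63587 and 65149 in the cluster 0 nuclei deep enough to be thinned. Of the cluster 0 nuclei at E15.5, 8 were too shallow to enter.

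Of 6 genes of GABA synthesis and transport tested, 4 were called higher than in the other clusters, Gad1, Gad2 and Slc32a1 among them, and none lower. Since Gad2 and Slc32a1 are markers of the label, the counts and medians of this group, here and over cluster 6, partly repeat them. In stage order, Gad1 was at 239, 132 and 139 CPM, against 46.8, 44.8 and 50.1 CPM in the other clusters, so its ratio was 5.11 (4.10 to 6.37), 2.95 (2.66 to 3.27) and 2.77 (2.52 to 3.05). After thinning, 3 of 11, 41 of 87 and 80 of 164 cluster 0 nuclei had a fragment in Gad1 (9 of 11 unthinned at E12.5), and at E12.5 its promoter held 0 fragments in cluster 0. Gad2, far lower in CPM at E12.5, had the same share after thinning, 3 of 11. How evenly the Gad1 fragments were spread over these nuclei was not tested. The narrow E12.5 interval does not cover that spread, so this ratio may rest on few nuclei. The glial-type GABA transporter Slc6a11 reached ratios of 3.24, 1.76 and 2.2 and missed the call at E13.5, and the GABA-degrading transaminase Abat was not called, with ratios of 2.07, 1.26 and 1.13. The median log2 ratio of the 6 genes was 1.65 at E13.5 and 1.52 at E15.5, beside -0.07 and -0.05 over all genes tested.

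Against cluster 6, a smaller part of this group stood out. Of all 16199 genes tested, 56 (0.346%) were called higher in cluster 0 and 42 (0.259%) lower. Slc32a1 alone among the 6 GABA genes was called higher, at ratios of 3.12 (2.36 to 4.17) at E13.5 and 2.05 (1.47 to 2.92) at E15.5. Gad2 was higher at E13.5 at 3.6 (2.98 to 4.37) but below the limit at E15.5 at 1.62 (1.32 to 2.0), and Gad1 was at 2.63 and 1.88. At E12.5, Gad2 and Slc32a1 lay lower than in cluster 6, at ratios of 0.667 (0.39 to 1.16) and 0.662 (0.324 to 1.4), with 38 and 22 fragments in cluster 0. The median log2 ratio of the group over cluster 6 was 1.05 at E13.5 and 0.67 at E15.5.

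At promoters, which are narrower than gene bodies, the separation from cluster 6 was wider for Slc32a1. The window from 1000 bp upstream to 100 bp downstream of its TSS held 83 and 107 fragments in cluster 0 in the later libraries, but 3 and 6 fragments in cluster 6. On the CPM scale of promoters this was 29.3 times (9.67 to 145) and 5.17 times (2.3 to 14.4) the cluster 6 value, and 8.87 and 7.28 times that of the other clusters. The Gad2 promoter held 50 and 81 fragments in cluster 0 against 19 and 11 in cluster 6, ratios of 2.78 and 2.14. The Gad1 promoter held only 4 and 8 fragments, too few to place it. At E12.5 the Slc32a1 promoter held 1 fragment in cluster 0, 5 in cluster 6 and 18 in the other clusters. The 250 bases upstream of the Slc32a1 TSS are shown because the values above are of this promoter. They lie at chr2:158610508-158610757 on the plus strand (GRCm38.p6, from RefSeq), with the E-box CACCTG in capitals as the single match to the 10 motifs searched further below.
Slc32a1 promoter: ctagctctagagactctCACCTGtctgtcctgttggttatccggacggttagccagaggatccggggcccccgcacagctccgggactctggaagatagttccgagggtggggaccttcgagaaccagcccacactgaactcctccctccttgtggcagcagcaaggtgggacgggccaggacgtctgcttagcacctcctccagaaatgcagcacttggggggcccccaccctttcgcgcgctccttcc

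**Figure D1:**
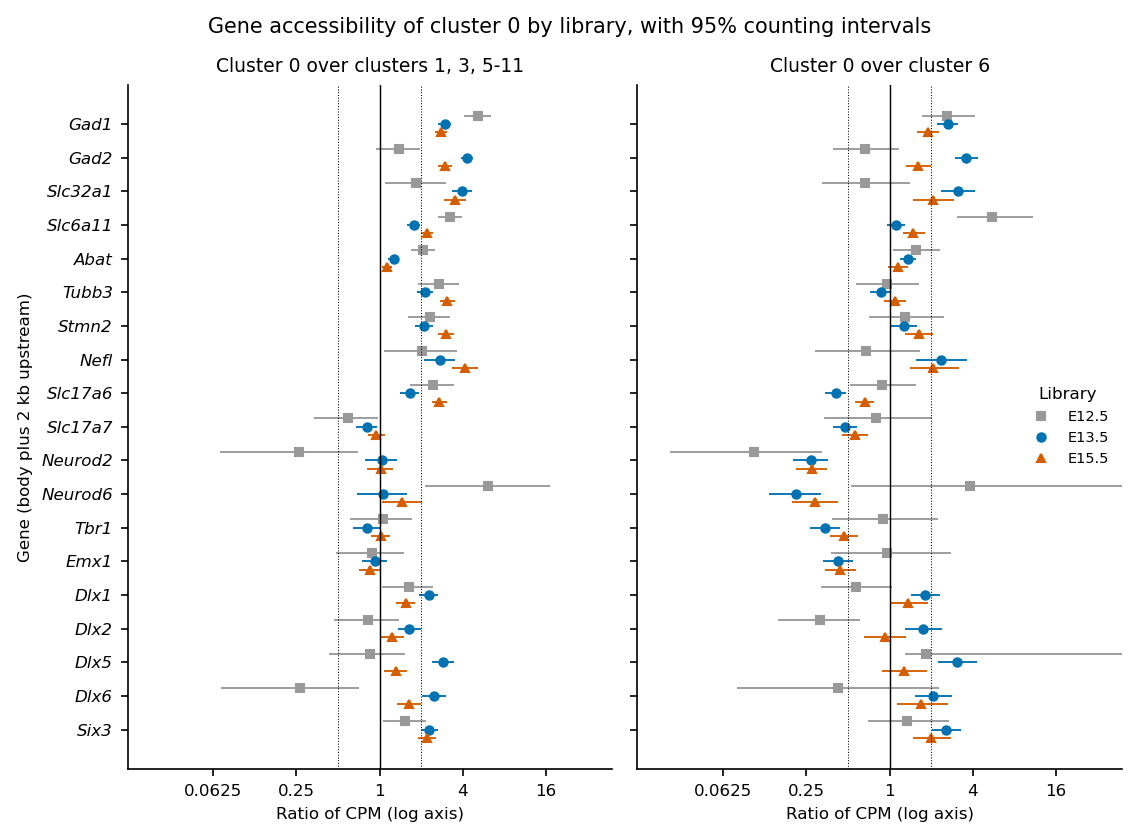
Ratio of CPM in cluster 0 to that in the other clusters (left) and in cluster 6 (right) on a log axis for 19 genes, with 95% counting intervals, by library; dotted lines mark the 2-fold limits. In the E13.5 and E15.5 libraries, Slc32a1 lies past 2-fold in both panels, whereas Neurod2 lies near 1 on the left (1.04 and 1.01) and below 0.5 on the right. Intervals that run past the axis end there, and the E12.5 point of Dlx5 on the right is set against a floor of 3 fragments because cluster 6 held 0.

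Of 16 pan-neuronal genes tested (17 listed), which neurons of any transmitter type use, 9 were called higher than in the other clusters: the cytoskeletal genes Tubb3, Map2, Stmn2 and Stmn3, the neurofilament genes Nefl, Nefm and Ina, the RNA-binding factor Elavl3 and the neuronal repressor Myt1l. Tubb3 was at 80.3, 73.6 and 85.6 CPM in stage order against 29.9, 34.6 and 27.7 in the other clusters and 84.3, 85.6 and 78.2 in cluster 6. Against cluster 6, Nefl was the only one called higher, at 2.35 (1.55 to 3.64) and 2.07 (1.4 to 3.16). It rested on 81 and 227 fragments in cluster 0 and 33 and 29 in cluster 6. At its promoter alone the E13.5 ratio to cluster 6 was 1.65 (0.663 to 4.31), on 14 and 9 fragments. The group's median log2 ratio was 1.06 and 1.33 over the other clusters and 0.19 and 0.29 over cluster 6. The label's markers Tubb3, Stmn2 and Nefl are in this group, so its counts and medians partly repeat them. Tubb3, Nefl, Nefm, Ina and Elavl3 each overlap a neighbouring gene in the counted span, so fragments there are shared, and ATAC-seq gives no strand.

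Of 14 receptors and chloride transporters tested (15 listed) that respond to or shape GABA signalling, 2 were called higher than in the other clusters, the GABA-A receptor subunits Gabra5 and Gabrg1, and none was called over cluster 6. Gabra5, which overlaps a neighbouring gene, was at 67.6 and 60.1 CPM in the later libraries against 30.3 and 29.8 in the other clusters. The median log2 ratio of the group was 0.82 and 0.80 over the other clusters and 0.15 and 0.30 over cluster 6. Slc12a5, the neuronal chloride extruder, was at 1.5 and 2.34 times the other clusters.

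Of 16 ventral forebrain factors tested, 1 was called higher. This was Six3, a homeodomain factor, called both over the other clusters (2.28 and 2.2) and over cluster 6 (2.58 and 2.01). Its levels were 63.3, 68.7 and 52.4 CPM in stage order against 41.5, 30.1 and 23.8 in the other clusters. Dlx5 was at 44 and 25.2 CPM in the later libraries, ratios over the other clusters of 2.87 (2.39 to 3.43) and 1.31 (1.08 to 1.58). Dlx1 was at 2.26 and 1.55, Dlx2 at 1.64 and 1.22 and Dlx6 at 2.48 and 1.63 times the other clusters. All 4 Dlx genes shared this order of stages. The group's median log2 ratio was 0.85 at E13.5 and 0.42 at E15.5. At E12.5 it was -0.15, where Dlx5 and Dlx6 rested on 13 and 4 fragments. None of the 13 brainstem and spinal GABAergic factors was called, and their median log2 ratio was 0.34 and 0.39.

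Some genes of other neuron classes were called higher over the other clusters as well. Among 14 genes of interneuron subtypes and migration these were the neuropeptide genes Npy, Tac1 and Pnoc. Pnoc was at 61.8, 54.7 and 53.5 CPM in stage order against 28.4, 23.9 and 21.8. Among 14 cholinergic, motor and monoamine genes they were Slc18a3, the vesicular acetylcholine transporter, and Slc6a5, the glycine transporter of inhibitory neurons in the hindbrain and cord, at 2.27 and 2.17. Of 9 peripheral sensory neuron genes, the homeodomain factor Pou4f2 was called, at 2.18 and 2.3. None of these 6 was called over cluster 6. The Hox genes of hindbrain and cord had a median log2 ratio of -0.49 and -0.30 over the other clusters, with none of 16 called. None of 13 neural progenitor genes (medians 0.19 and -0.03), 7 forebrain and midbrain position factors (0.35 and 0.17) or 10 subcortical glutamatergic factors (-0.04 and 0.45) was called against the other clusters. The same held over cluster 6, where 11 of the 13 progenitor genes could be tested.

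Of 13 cortical glutamatergic factors, 8 were called lower in cluster 0 than in cluster 6 and none against the other clusters. Those called lower included Neurod1, Neurod2, Neurod6, Tbr1, Emx1, Neurog2 and Bhlhe22. The median log2 ratio over all 13 was -1.55 and -1.16, against 0.02 over all genes at both stages. Neurod2, a factor of excitatory cortical neurons, was at 17.6 and 18.3 CPM in the later libraries in cluster 0, at 65 and 67.1 in cluster 6, and at 17 and 18.1 in the other clusters. The ratio to cluster 6 was thus 0.27 (0.202 to 0.358) and 0.273 (0.211 to 0.354), and that to the other clusters was 1.04 and 1.01. Neurod6 lay at 0.211 (0.133 to 0.321) and 0.288 (0.197 to 0.424) of cluster 6. Over the other clusters the group median was -0.14 and 0.02. The 10 subcortical glutamatergic factors had none called over cluster 6, with medians of -0.45 and -0.11.

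Slc17a6, the vesicular glutamate transporter of subcortical excitatory neurons, did not follow the same pattern. It was at 68, 50.3 and 78.7 CPM in cluster 0 in stage order, between the other clusters (28.1, 30.4 and 29.2) and cluster 6 (77, 123 and 119). Its E15.5 ratio was 2.7 (2.38 to 3.06) to the other clusters and 0.66 (0.563 to 0.777) to cluster 6. After thinning, 16.1% and 21.3% of cluster 0 nuclei in these libraries had a fragment in Slc17a6, against 38 of 76 and 25 of 47 nuclei in cluster 6 and 6.25% of cluster 5 nuclei at E13.5. In cluster 5 at E15.5 it was 0 of 10 nuclei, which allows a share of up to 30.8%. The gene body and the promoter differed: at the promoter, the ratio to the other clusters was 0.764 (0.299 to 1.64) on 7 fragments at E13.5 and 1.32 (0.802 to 2.13) on 28 at E15.5. Slc17a7, the cortical transporter, was at 0.475 and 0.563 of cluster 6, and Slc17a8, the remaining transporter of the family, at 2.25 (1.5 to 3.44) and 1.87 (1.24 to 2.94) times. None of the 3 transporters was called against either reference.

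**Figure D2:**
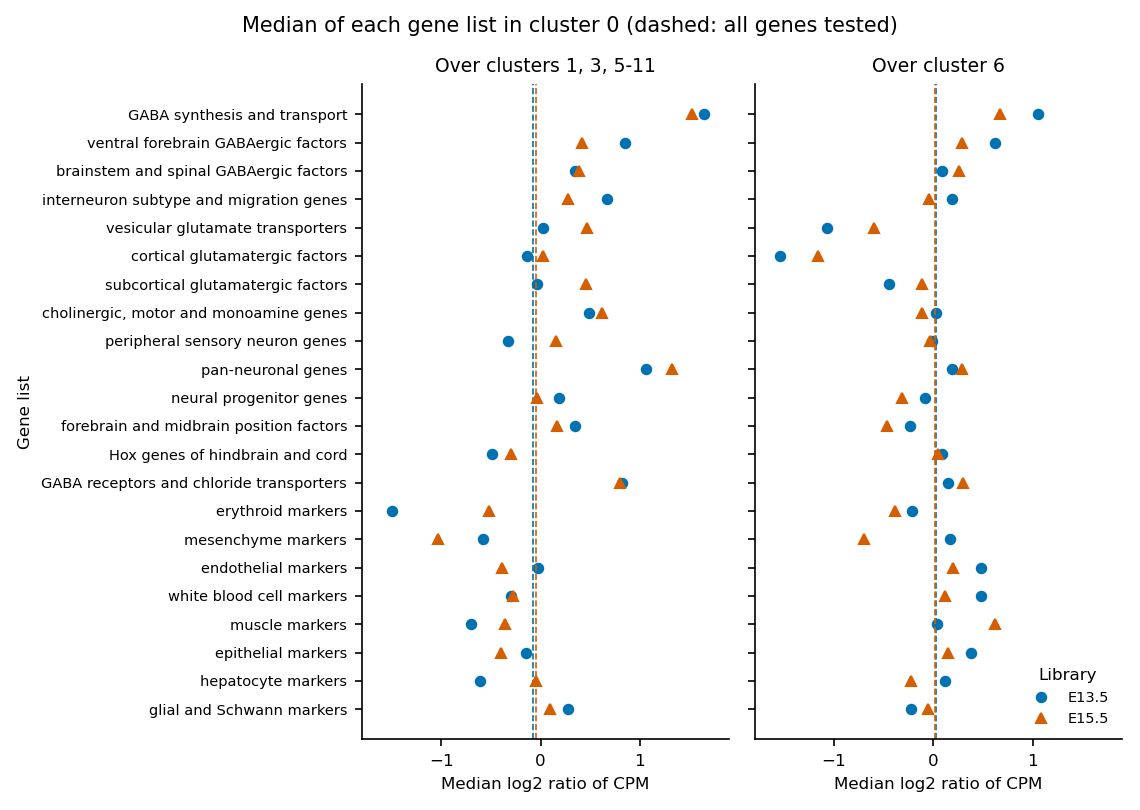
Median log2 ratio of CPM in cluster 0 for each of 22 gene lists, over the other clusters (left) and over cluster 6 (right), at E13.5 and E15.5, with dashed lines at the median of all genes tested. Among these lists, GABA synthesis and transport has the highest median in both panels (1.65 and 1.52 on the left, 1.05 and 0.67 on the right). It holds the label's markers Gad2 and Slc32a1. The list of all 5 label markers is not drawn (1.44 and 1.63 on the left, 1.24 and 0.70 on the right). The cortical glutamatergic factors have the lowest median on the right (-1.55 and -1.16).

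Markers of cells that are not neurons gave no call in favour of cluster 0. None of the erythroid, mesenchyme, endothelial, white blood cell, muscle, epithelial, hepatocyte or glial markers was called higher. The erythroid factor Gata1 was called lower, at 3.85 and 3.96 CPM against 25.6 and 8.39, and so was the muscle factor Myf5. With promoters alone, the log2 ratio of Gata1 over the other clusters was 0.22. The summed erythroid markers were at 74.2 and 65.8 CPM in cluster 0 against 216 and 93.6 in the other clusters. List medians on the log2 scale ranged from -1.49 (erythroid) to 0.27 (glial) at E13.5 and from -1.04 (mesenchyme) to 0.09 (glial) at E15.5. No marker of these types was at 0 in either library. A gene span collects some fragments in any nucleus.

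By the lower of its E13.5 and E15.5 ratios over the other clusters, Slc32a1 ranked highest of all, and the 10 highest also held the fibrillarin-like gene Fbll1 (3.48 and 3.52), the sialyltransferase St8sia3 (3.47 and 3.77), the activity-regulated factor Npas4 (3.56 and 3.41), the receptor Gpr22 (3.43 and 3.35), the imprinted gene Snurf, Nap1l2 and the splicing factor Celf3. With promoters alone, the mean log2 ratio of St8sia3 over the other clusters fell from 1.86 to 0.67, below the 2-fold limit, and over cluster 6 it went from 0.65 to -1.44. Over the other clusters it went from 1.81 to 1.12 for Fbll1, from 1.80 to 2.67 for Npas4 and from 1.76 to 2.59 for Gpr22. By gene span, Npas4 was at 30.9, 43.7 and 41.4 CPM in stage order against 13, 12.3 and 12.1. Gpr22, Snurf and Celf3 overlap neighbouring genes.

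The genes most raised over cluster 6 were Ptgdr, Klk4, Spaca3, Sstr4, Lor, 6030408B16Rik, Serpina1b, Acta1, D730001G18Rik and Gm5127. With promoters alone, the log2 ratio of Lor over cluster 6 was -0.64. The somatostatin receptor gene Sstr4 was at 10.4 and 8.8 CPM in cluster 0 against 1.43 and 2.77 in cluster 6, ratios of 7.29 (2.87 to 23.7) and 3.17 (1.29 to 10.1). Acta1, an actin gene of muscle, was at 21.2 and 31.4 against 7.16 and 11.1, while the muscle list as a whole held no gene called higher. The genes most raised in cluster 6 over cluster 0 were Ly6g6e, Tmem91, Neurod2, Neurod6, Phgr1, Ly6g6d, 7530416G11Rik, Bhlhe22, Gucy1b2 and Serping1. For these the minimum applied to cluster 6 alone. The complement inhibitor Serping1 was at 5.5 and 8.21 CPM in cluster 0 against 26.9 and 20.5.

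Within cluster 0, the later library differed from the earlier one in few genes. Of 17439 genes tested, 192 (1.10%) were at least 2-fold higher at E15.5 than at E13.5 and 161 (0.923%) at least 2-fold lower. Of the genes in the lists, the endothelial cadherin Cdh5 was the only one called, at 2.18 times (1.63 to 2.95) its E13.5 level, while the endothelial genes Kdr, Tie1 and Tek stood at 0.603, 0.509 and 0.815 times and the median log2 change of that list was -0.21. Of the genes named over cluster 6, Klk4, Spaca3 and D730001G18Rik were called lower, at 0.339, 0.451 and 0.295 times. These genes fell outside cluster 0 too, to 0.628, 0.683 and 0.68 times in the other clusters. In cluster 6 they were at 0.342, 0.342 and 0.363 times, with upper limits of 1.18, 0.96 and 1.27. Dlx5 was at 0.574 times (0.46 to 0.716) its E13.5 level, whereas it was at 1.26 times in the other clusters and 1.39 times (0.883 to 2.18) in cluster 6. Slc17a6 was at 1.57 times (1.32 to 1.86), Ina at 1.58 times (1.31 to 1.91) and Nefl at 1.5 times (1.16 to 1.95). In the other clusters Slc17a6, Ina and Nefl were at 0.961, 0.926 and 0.983 times. In cluster 6 they were at 0.969, 0.796 and 1.7 times, the last with an interval of 0.997 to 2.89. None of 16 ventral forebrain factors, 13 neural progenitor genes or 16 pan-neuronal genes was called, with median log2 changes of -0.32, -0.36 and 0.22, beside 0.02 over all genes. Lists of other kinds had medians as low, at -0.46 for epithelial, -0.39 for erythroid and -0.36 for mesenchyme markers. Stage and library cannot be told apart here.

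The nuclei of cluster 0 were not uniform, and the mix differed between libraries. Latent semantic indexing of 177187 distal windows of 500 bp over the 269 nuclei with at least 5000 fragments, followed by Ward clustering into 4 subgroups, gave subgroups of 117 (A), 71 (B), 49 (C) and 32 (D) nuclei. Subgroup A made up 11.5% (5.65 to 20.1) of cluster 0 at E13.5 and 59.6% (51.9 to 67.1) at E15.5. At E12.5 it held 5 of the 11 nuclei, 45.5% (16.7 to 76.6), so its share followed no single direction over the 3 libraries. Subgroup B was 39.1% and then 21.6%, C 35.6% and then 9.36%, and D 13.8% and then 9.36%. These are shares of nuclei with exact binomial 95% intervals. Subgroup B held 0 of the 11 nuclei at E12.5, which allows up to 28.5%. Since the subgroups were drawn from the same fragments, the genes below are a description without a test. A gene is named as raised or lowered in a subgroup when its CPM was at least 1.5-fold from that of the remaining subgroups, in the same direction in both libraries. Over all 18338 genes with 30 or more fragments in cluster 0, 2.58%, 1.9%, 5.57% and 6.48% were raised by this rule in subgroups A to D, and 2.18%, 3.57%, 6.08% and 6.63% were lowered. The partition depends on the features: with 5 kb bins of the whole genome, the subgroup with most Dlx fragments held 118 nuclei, 37 of the 49 of subgroup C among them.

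Most Dlx genes were highest in subgroup C. Of 16 ventral forebrain factors, 8 were raised there, among them Dlx1, Dlx2, Dlx5, Dlx6, Sp8, Sp9 and Lhx6, and the striatal and olfactory factor Ebf1 was lowered. Dlx1 was at 97 and 218 CPM in subgroup C in the later libraries, against 37.8 and 26.3 in the remaining subgroups. Dlx6 was at 65.3 and 125 against 25.7 and 19, and Lhx6, a factor of interneurons born in the medial ganglionic eminence, at 84.8 and 153 against 33.9 and 43.2. Of the 13 progenitor genes 6 were raised as well, among them Sox2 (43.8 and 92.6 against 20.6 and 17.1) and Nes. Of 14 interneuron genes, 5 were raised, among them Cxcr4, Maf, Sst and Prox1, of which Sst rested on 7 and 6 fragments and was raised in subgroup D too. Single markers of other cell types were also raised in subgroup C, namely Gata1, Twist1, Apoa1 and Olig2. Slc32a1 was at 2.14 and 1.98 times the remaining subgroups. Slc17a6 was at 0.606 and 0.181 times them, with 37 and 6 fragments. The share of fragments at TSSs was 14.4% in subgroup C, the highest of the 4.

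In subgroup B, Dlx5 at E15.5 was higher still, at 3.76 times the remaining subgroups against 1.99 in C, but missed the rule at E13.5. This subgroup had Isl1, Meis2 and Six3 raised, which are factors of striatal and other ventral forebrain neurons, and Lhx6 lowered. Isl1 was at 47.5 and 66.7 CPM against 28.2 and 21.6, and Meis2 at 434 and 510 against 278 and 227. Lhx6 was at 18.2 and 27.3 against 65.2 and 53.4. Of 6 mesenchyme markers, the collagen genes Col1a1 (1.67 and 2.03 times the remaining subgroups) and Col1a2 (5.28 and 1.84 times) were raised here too, and their part in this grouping was not tested. Gad2 was at 180 and 165 CPM, 1.43 and 1.88 times the remaining subgroups.

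In subgroup A, which made up most of cluster 0 at E15.5, 7 of the 16 ventral forebrain factors were lowered, among them Dlx1, Dlx2, Dlx5, Dlx6, Gsx2 and Six3, and so were the progenitor genes Sox1, Sox2 and Sox9. Dlx1 was at 0.217 and 0.323 times the remaining subgroups. Slc17a6 was raised, at 121 and 92.5 CPM against 38.5 and 52, as were the growth cone gene Stmn2 (1.73 and 1.62 times) and the RNA-binding factor Elavl4 (1.68 and 1.65 times). The cortical glutamatergic factor Neurod6 and the white blood cell marker Spi1 were raised too. Slc32a1 was at 46.2 and 37 CPM against 62.2 and 62.

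Subgroup D differed in quality. Its nuclei had a median of 115800 fragments, against 49342 to 71395 in the other 3, and 5.47% of fragments at TSSs, against 10.5% to 14.4%. Slc32a1, Dlx5 and Dlx6 were lowered in it, and 3 of 6 endothelial markers were raised (Cdh5, Kdr and Tie1). So were the muscle marker Myog and the epithelial marker Cdh1, 1 of 6 in each list. Cdh5 was at 34.4 and 64.3 CPM against 11.2 and 30.9. Whether depth or the endothelial signal had a part in this grouping was not tested, although the first latent component, which tracked depth at r = 0.95 over nuclei, had been dropped and the component after it still had r = -0.60.

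**Figure D3:**
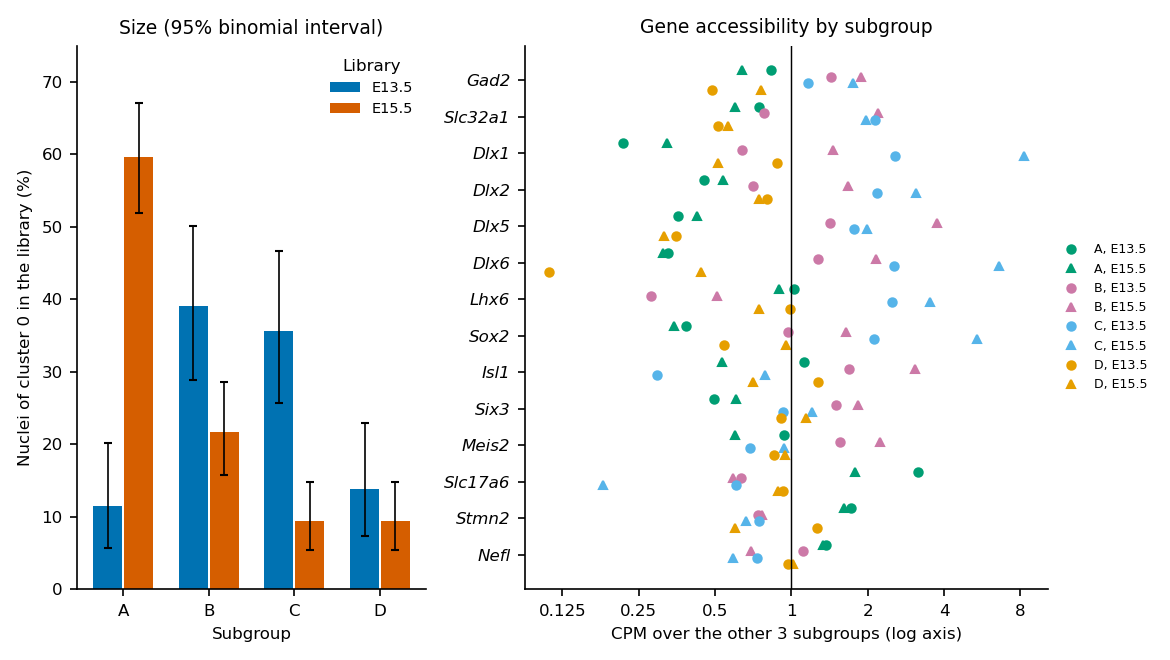
Left, share of cluster 0 nuclei in subgroups A to D in each of the E13.5 and E15.5 libraries, with exact binomial 95% intervals. Right, CPM of 14 genes in each subgroup over that in the other 3 subgroups on a log axis. Subgroup A stands at 11.5% and 59.6% and has Slc17a6 at 3.15 and 1.78 and Dlx1 at 0.217 and 0.323, whereas subgroup C has Dlx1 at 2.57 and 8.26.

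Regions outside promoters were compared in the same way, with a higher limit. Of the 500 bp windows at least 2000 bp from any TSS, 11396 held 20 or more Tn5 insertions of cluster 0 nuclei in both the E13.5 and E15.5 libraries, and 911 of these (7.99%) had at least 4 times the insertions per 1000000 of the other clusters at both stages. These are called raised windows. They merged into 807 regions. The rule used E13.5 and E15.5, and the windows nearest to the limit had a lower ratio of 4.0 on either side of it. In the E12.5 library, which the rule did not use, the raised windows summed to 2691 insertions in cluster 0 and stood at 2.62 times (2.50 to 2.74) the other clusters, whereas the other open windows stood at 1.05 times (1.04 to 1.06). The E12.5 nuclei were, however, clustered with the rest.

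The raised windows were partly shared with cluster 6. They summed to 2.68 times the cluster 6 level at E13.5 and 2.29 times at E15.5, against 0.983 and 0.929 for the other open windows, and 488 of the 911 (53.6%) were at least 2-fold above cluster 6 at both stages, against 6.86% of the other open windows. The rule used these libraries and a reference that holds cluster 6, so nothing is read from this gap. At E12.5, which the rule did not use, they stood at 1.22 times (1.13 to 1.32) cluster 6 and the other open windows at 0.646 times. Against cluster 9 (81 nuclei), which is also part of that reference, raised windows stood at 3.39 and 3.77 times at E13.5 and E15.5. At E12.5 they stood at 1.74 times (1.64 to 1.86). The median ratio of a raised window to cluster 9 was 4.30 at E13.5 and 1.81 at E15.5. In these ratios, a window without insertions in cluster 9 was counted as having 3. This floor lowers the ratio of such windows, and weighs more at E15.5, with 20 nuclei of cluster 9, than at E13.5, with 50. No change between stages is therefore read from these medians. A raised window drew its insertions from a median of 11 nuclei at E13.5 and 18 at E15.5, and the nucleus that gave most supplied a median of 8.75% of them. Raised windows lay a median of 83082 bp from the nearest start of a protein-coding gene, against 29027 bp for the other open windows. Starts of non-coding genes and of alternative transcripts, which the rule for distal windows did use, are left out of this distance. They fell in introns in 47.2% of cases and between genes in 47.1%, against 38.6% and 48.9%. They also held fewer G and C bases, with a median of 47.7% against 53.3%.

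**Figure D4:**
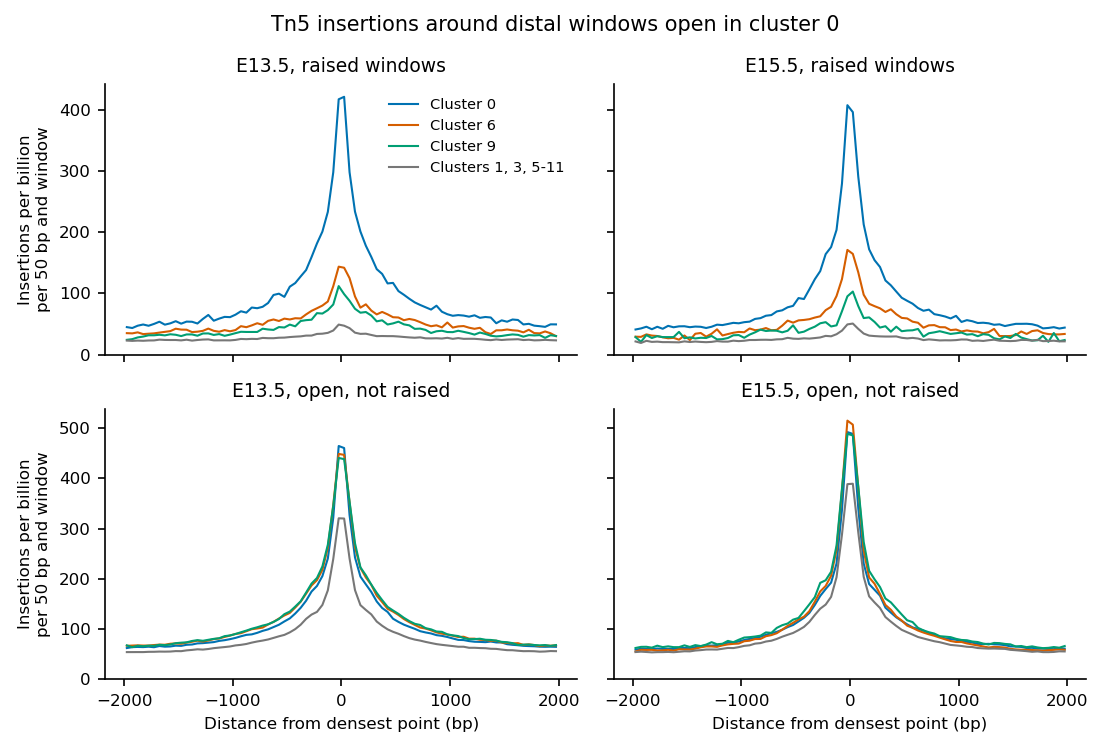
Tn5 insertions per 1000000000, per 50 bp and window, by distance from the densest point of each window, for 911 raised windows (top) and 10485 other open windows (bottom), in nuclei of clusters 0, 6, 9 and the other clusters. At raised windows the centre over the flank is 6.38 and 6.58 in cluster 0, 3.21 and 4.10 in cluster 6 and 1.77 and 1.91 in the other clusters; at the other open windows the 4 groups lie between 4.45 and 6.6. The densest point is that of cluster 0 insertions. Raised windows were picked in these same libraries for high ratios over the other clusters, so nothing is read from the gap between clusters.

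Around the GABA genes, raised windows were dense. Within 50 kb of the 6 genes of GABA synthesis and transport, 19 of 41 open windows (46.3%) were raised, against 7.99% of all open windows, and 5 of the 6 genes had at least 1. Slc32a1 had 9 of 16 raised, Gad2 2 of 4, and Slc6a11 7 of 14. Gad1 had none of 3. Of 84 open windows near pan-neuronal genes 14 were raised (16.7%), of 20 near GABA receptor and chloride transporter genes 6 (30%), of 39 near ventral forebrain factors 2 (5.13%) and of 45 near cortical glutamatergic factors 1 (2.22%).

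The regions shown are 300 bases around the densest point of insertions, on the plus strand of GRCm38 (mm10), with matches to the 10 motifs in capitals. They were chosen by rule: 3 of the 4 raised windows with the highest lower ratio, which carry the strongest difference in the data, and the strongest near Gad2, Slc32a1 and the Dlx5 and Dlx6 pair, which lie beside genes described above. No raised window lay near Gad1 or the Dlx1 and Dlx2 pair. Places and distances are those of the 500 bp window, which the 300 bases can run past. The window of the first, at chr13:64745421-64745720, overlaps an exon of Cntnap3. Its label below refers to that window, and not every printed base need be exonic. The second, at chr12:106453399-106453698, and the next, at chr7:77183593-77183892, are intergenic. The nearest starts of protein-coding genes are those of Vrk1 at 443523 bp and Agbl1 at 953864 bp.
Cntnap3 exon: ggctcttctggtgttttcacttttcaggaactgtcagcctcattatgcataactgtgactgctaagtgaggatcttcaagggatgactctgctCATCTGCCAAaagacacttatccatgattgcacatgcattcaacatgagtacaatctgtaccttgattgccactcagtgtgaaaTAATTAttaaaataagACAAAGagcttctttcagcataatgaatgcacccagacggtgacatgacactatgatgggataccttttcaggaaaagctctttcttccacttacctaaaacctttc
Intergenic, chromosome 12: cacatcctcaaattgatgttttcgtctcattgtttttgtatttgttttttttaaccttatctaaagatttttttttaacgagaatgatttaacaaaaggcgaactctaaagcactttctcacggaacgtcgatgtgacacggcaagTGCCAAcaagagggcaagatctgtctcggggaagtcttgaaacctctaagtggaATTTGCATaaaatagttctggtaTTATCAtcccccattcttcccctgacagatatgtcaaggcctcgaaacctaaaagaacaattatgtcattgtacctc
Intergenic, chromosome 7: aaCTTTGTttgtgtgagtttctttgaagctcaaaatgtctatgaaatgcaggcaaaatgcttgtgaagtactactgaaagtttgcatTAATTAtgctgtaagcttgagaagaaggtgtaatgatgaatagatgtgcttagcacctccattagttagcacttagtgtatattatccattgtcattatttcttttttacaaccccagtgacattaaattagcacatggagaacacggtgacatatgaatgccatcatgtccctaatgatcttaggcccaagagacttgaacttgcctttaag

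These 3 regions had few insertions outside cluster 0. They were picked for high ratios over the other clusters in the E13.5 and E15.5 libraries. The contrast below restates that choice, and the intervals do not allow for it. The Cntnap3 region held 34 and 59 insertions in cluster 0 in the later libraries, from 11 and 18 nuclei, against 5 and 1 in all the other clusters together, and 2 and 0 in cluster 6. Its ratio over the other clusters was 62.7 (24.4 to 205) and 135 (23.3 to 5425). The chromosome 12 region held 60 and 77 insertions against 12 and 4, and the chromosome 7 region 27 and 35 against 3 and 2. Subgroup B supplied most of the insertions, with 76 in the Cntnap3 region, 107 on chromosome 12 and 60 on chromosome 7 over all 3 libraries, while subgroup A supplied 11, 7 and 0. Per 1000000 insertions of a subgroup, B was at 9.76, 13.7 and 7.7, A at 0.604, 0.384 and 0, C at 0, 4.04 and 0, and D at 1.04, 0.78 and 0.26. The subgroups had been drawn from windows that include these.

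The Gad2 region, at chr2:22627266-22627565, lies in an intron of Gad2, 5046 bp from its TSS. The Slc32a1 region, at chr2:158563825-158564124, is intergenic and 47016 bp from the TSS of Slc32a1. The region at chr6:6850095-6850394 lies in an intron of Dlx6os1, a transcript antisense to Dlx6, 13083 bp from the Dlx6 TSS.
Gad2 intron: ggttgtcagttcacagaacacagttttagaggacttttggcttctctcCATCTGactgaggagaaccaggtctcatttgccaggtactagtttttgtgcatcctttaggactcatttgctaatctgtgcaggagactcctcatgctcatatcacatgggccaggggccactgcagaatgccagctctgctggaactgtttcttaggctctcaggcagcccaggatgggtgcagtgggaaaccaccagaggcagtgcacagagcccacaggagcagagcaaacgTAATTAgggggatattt
Intergenic, near Slc32a1: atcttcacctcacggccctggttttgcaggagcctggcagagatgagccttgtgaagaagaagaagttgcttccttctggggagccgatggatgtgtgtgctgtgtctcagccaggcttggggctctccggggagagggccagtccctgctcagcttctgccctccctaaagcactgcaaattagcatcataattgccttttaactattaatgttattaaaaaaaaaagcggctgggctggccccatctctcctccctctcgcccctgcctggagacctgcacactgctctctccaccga
Dlx6os1 intron: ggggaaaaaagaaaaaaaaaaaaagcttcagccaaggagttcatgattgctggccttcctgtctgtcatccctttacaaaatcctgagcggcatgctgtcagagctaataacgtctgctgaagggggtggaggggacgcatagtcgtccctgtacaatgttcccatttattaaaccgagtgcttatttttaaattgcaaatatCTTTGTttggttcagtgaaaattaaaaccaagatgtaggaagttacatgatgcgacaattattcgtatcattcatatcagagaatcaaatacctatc

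The Slc32a1 region held 26 and 54 insertions in cluster 0 in the later libraries and 0 in cluster 6 in both libraries. Against a floor of 3 insertions per library, its ratios to cluster 6 were 8.09 and 4.79. The lower 95% counting limits of these ratios were 6.12 and 3.76. Subgroups A and C supplied 38 and 28 of its insertions, which was 2.09 and 5.65 per 1000000, against 1.03 in B and 1.17 in D. The Gad2 region held 22 and 48 insertions, 7.25 and 5.23 times the other clusters, but its E15.5 ratio to cluster 6 was 1.42 (0.689 to 3.29). The Dlx6os1 region held 20 and 33 insertions, 5.59 and 15.1 times the other clusters. Per 1000000 insertions it stood at 3.21 in subgroup B, 2.02 in C, 0.911 in D and 0.659 in A, on 25, 10, 7 and 12 insertions over all 3 libraries.

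Raised windows differed in the short sequences they held. Each of 10 motifs was searched on both strands in the 300 bases around the densest point, and none of the 10 is contained in another. The homeodomain core TAATTA was in 21.7% of raised windows (19.1 to 24.6), against 8.03% of the other open windows and 4.84% of promoter sequences. The promoter sequences were shorter, at 250 bases upstream of the TSS, so their shares are not directly comparable with those of the windows. The octamer ATGCAAAT bound by Pou factors was in 9.0% against 2.94%, the Rfx part-site GTTGCCATG in 8.45% against 2.40%, the Gata-type site TGATAA in 16.7% against 7.72%, and the Sox site ACAAAG in 31.3% against 23.6%. The E-boxes ran level or the other way, with CAGCTG at 23.4% against 25.5%, CAGATG at 20.7% against 24.2% and CACCTG at 17.2% against 24.6%. The Nfi part-site TTGGCA, at 14.9% against 16.1%, and the Mef2 site CTATTTATA, at 0.549% against 0.296%, had overlapping intervals. Promoters held these 9 at 1.60%, 0.642%, 7.94%, 16.5%, 13%, 14.4%, 17.2%, 12.3% and 0.387%, in the order given.

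Base composition moved with these shares, as raised windows held fewer G and C bases. Among windows of 45% to 55% GC, 479 raised and 5114 not, the gap was narrower for TAATTA (16.1% against 9.13%), TGATAA (13.4% against 9.27%) and the Sox site ACAAAG (29.6% against 25.9%). In the same windows ATGCAAAT was at 8.77% against 3.56% and GTTGCCATG at 8.14% against 2.33%. At 55% to 65% GC, with 114 raised and 3564 not, ATGCAAAT was at 0.877% against 1.26% and CACCTG at 32.5% against 30.5%, so their order turned, although the first rests on few matches. CAGCTG turned as well, at 35.1% against 31% there and 20.6% against 16.5% at 35% to 45% GC. GTTGCCATG stood at 11.4% against 2.67% and TAATTA at 8.77% against 4.80%. A match describes letters in a window and not a bound factor. Of the 6 regions printed, 3 held TAATTA, those in Cntnap3, on chromosome 7 and in Gad2, and the region near Slc32a1 held none of the 10 motifs.

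**Figure D5:**
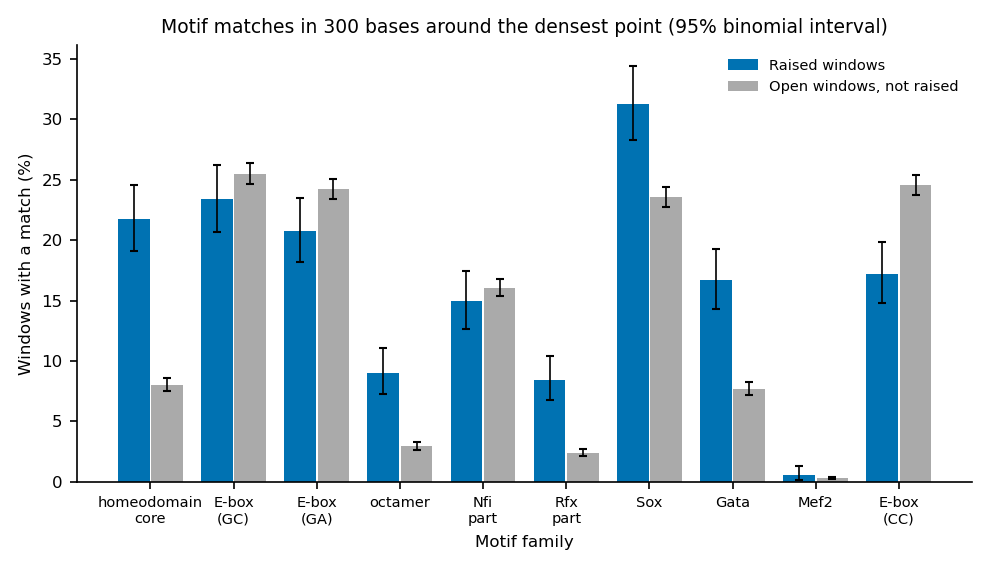
Share of 911 raised windows and 10485 other open windows with a match to each of 10 motifs, named by factor family and, for E-boxes, by the middle pair of bases, with exact binomial 95% intervals. Raised windows hold more matches to the homeodomain core (21.7% against 8.03%), the octamer, the Rfx part-site, the Gata-type site and the Sox site, and fewer to the CC E-box (17.2% against 24.6%).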

How the data were processed

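Per the file headers and the submitters' processing notes, the authors aligned reads to mm10 with Cell Ranger ATAC 2.0.0 and used Seurat 4.1.0 and Signac 1.6.0. Each line of the fragment files deposited by the authors holds 1 fragment, its barcode and a count of read pairs. The deposited cell table gives the cluster number and whole-number counts for 1879 nuclei, and 16 of its columns were not used here. Recomputed totals differed from the deposited ones by at most 0.604% per nucleus. The fragment files hold 9402554, 87687839 and 53120243 unique fragments in stage order.

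Samples were grouped by stage from the labels. Fragments were counted once per overlapping gene over the gene body and 2 kb upstream of 21593 protein-coding genes (GENCODE vM21, without 91 Pcdh and Ugt genes and 228 spans over 500 kb), summed per cluster and library and scaled to 1000000 (Python 3.11.15, scipy 1.17.1). A count of 0 was replaced by 3 in ratios of genes and windows, and so was any count under 3 in ratios of single promoters, of subgroups and between stages. The ratios and the 2-fold call were tested on simulated gene totals. Clusters 2 and 4 were left out. Doublets were not removed. The smallest nucleus of cluster 0 held 3453 fragments. Genes named were those of 23 fixed lists (a limit of 6 examples each was passed where more called, raised or lowered members are named, chosen after their values were seen) and the 10 with the highest lower-of-2-libraries ratio over the other clusters, over cluster 6, or of cluster 6 over cluster 0. Other genes named belong to the subgroup and stage descriptions. Members, lists and motifs were chosen with earlier results of these data known. Alternatives covered gene spans, thresholds, weighting by nucleus, depth, subgroup settings and windows. Some genes that these rules name are not reported here.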

Additional observations from a re-analysis of the deposited data

How the results depend on the processing

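Clusters were compared by ratios within each library, and no test was run on these because the clusters were drawn from the same fragments. No pairing between stages was possible, since the stages have 1 library each and share only the replicate number 1. For the same reason leaving out a replicate gives no value within a stage.

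The share of nuclei in cluster 0 became 13.3% at E12.5 and 30.8% at E15.5 without clusters 2 and 4 in the total. At E15.5 it was 27.5% over nuclei of at least 3000 fragments and 27.3% with 1 barcode per linked group. Without thinning, 91.95% and 76.2% of nuclei had a fragment in Gad2, and 75.9% and 62.2% in Slc32a1, at E13.5 and E15.5. After thinning, the shares for Slc32a1 were 18.4% and 26.2%, so thinning turned the order of the stages. Unthinned, 38.2% and 34.0% of cluster 6 nuclei had a fragment in Slc32a1, and 20.6% of cluster 5 nuclei at E13.5. Counts of genes called higher and lower than the other clusters, then than cluster 6, were 263, 649, 24 and 19 with promoters only, 689, 1008, 306 and 217 at 1.5-fold, 10, 21, 6 and 5 at 3-fold, 318, 1053, 382 and 249 with E13.5 alone, 399, 759, 557 and 153 with E15.5 alone, and 29, 62, 2 and 1 with all 3 libraries. With no minimum of fragments, 314 were higher than the other clusters, and 225 higher and 223 lower than cluster 6. Without the deepest 10% of nuclei, 324 were lower than the other clusters. The median log2 ratio of the GABA synthesis and transport genes over the other clusters was 1.75 with promoters, 1.85 with each nucleus weighted equally and 1.74 without the deepest nuclei, and over cluster 6 it was 1.15 with equal weights. That of the pan-neuronal genes was 1.79 with promoters. The Dlx-rich subgroup held 43.9% of nuclei with 5 kb bins in place of distal windows, where 37 of its 49 nuclei were among 118 (adjusted Rand index 0.133), so the partition into subgroups depends on the features used. With 3 or 5 subgroups, the same 49 nuclei stayed together. Both settings cut the same Ward clustering, so they say little about how stable this subgroup is. Of 11396 open windows, 3196 (28.0%) were raised at 2-fold and 165 (1.45%) at 8-fold. With at least 40 insertions in each library, 156 of 1883 open windows (8.28%) were raised. In 500 bases, 28.4% of raised windows held TAATTA, 30.8% CAGCTG, 33.3% CAGATG, 23.5% TTGGCA, 46.4% ACAAAG, 24.0% TGATAA and 29.4% CACCTG. Within 45% to 55% GC, an alternative chosen after seeing the data, TAATTA was at 16.1% and TGATAA at 13.4%. With promoters only, the log2 ratio of Gata1 over the other clusters turned to 0.22 and that of Lor over cluster 6 to -0.64. Of 539 values of single genes under 6 alternatives, 17 had another sign than in the report, and among genes that had been called these were the 2 just given.

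Counting intervals leave out variation between embryos. E12.5 holds 11 nuclei of cluster 0 and 5 of cluster 6, so it can bear out or contradict little. Clusters, subgroups and raised windows came from the same fragments, and doublets were not removed.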
